A study of Mus musculus with 80 samples.

Results

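The genes described here encode the cytoskeleton and its motors: actins and the proteins that bind, cross-link or contract actin filaments, tubulins and the kinesins that move on microtubules, and the simple-epithelial keratins with vimentin. Members were all genes whose symbol begins with the stems of these families (for example Actb, Arpc, Tub, Tpm, Myh, Myl, Myo, Kif, Krt, Fln) on an array spot annotated with exactly 1 gene symbol. This gave 79 genes on 116 spots, of 7151 genes with such a spot in the series, and each gene was read from its spot of highest mean over 40 mice. The mice were C57BL/6 on unrestricted regular feed, 20 of them male, and lung RNA of each was hybridised as 33P-labelled cDNA to a pair of spotted cDNA arrays. Each age group held 5 males and 5 females, at 17 to 44, 169 to 194, 476 to 499 and 704 to 743 days. The labels name no transgene and no treatment, and the design compares ages and sexes.

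The actin cytoskeleton is built from monomers that assemble into filaments; Arp2/3 branches them, cofilin severs them, actinins and filamins cross-link them, and tropomyosins and calponins sit along them. Myosins pull on actin filaments, and in lung the contractile forms serve airway and vessel smooth muscle, while the nonmuscle forms act in every cell. Kinesins walk on microtubules, carrying cargo, building cilia or arranging the mitotic spindle, and keratins 7, 8, 18 and 19 form the intermediate filaments of lung epithelium.

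Levels are z scores, scaled by the authors within each array of 8448 spots, so a level is a place within its own array and no fold can be given. The clone set was divided over table A and table B, which were normalised separately; 44 members were read on table A and 35 on table B. Array medians ran from -0.11 to 0.02. The description of 1 male of 714 days named another mouse; leaving that male out changed no count of members called. Spots lie in 16 blocks of 24 lines by 22 columns, and calls of age gathered in some columns. Members called with age are therefore given, in the comparison that called them, as deposited and again after a position correction. For that correction the 24 spots sharing a block and a column were treated as a set. Their median departure from their means over arrays was removed from each array. Other values are as deposited where no form is named. The labels also number the mice, and on table B the deviations changed at number 46, with 27 mice before it and 13 from it on; what the number marks is not stated. Of the lung's own cell markers, the mean z of 4 alveolar type II markers ran from -0.91 (Muc1) to 0.86 (Slc34a2), that of 3 endothelial markers from -0.42 (Emcn) to 0.997 (Pecam1), and those of 2 club cell markers were 0.13 (Ces1d) and 1.42 (Cbr2). Smooth muscle and pericyte markers, 7 in all, ran from -1.38 (Itga8) to 1.08 (Mcam), and 8 ciliated cell markers from -2.19 (Tekt2) to 0.82 (Ift88). Of 38 striated muscle markers, 2 were measured.

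RefSeq promoters, from 250 bases before to 50 after a transcript start, were held for 62 of the 79 members (72 promoters, since a gene can have several such starts). A CArG box, the motif bound by serum response factor, was found in 6 of these 72 promoters (8.33%) and in 535 of all 32851 promoters (1.63%), with no test made. The motif reads alike on both strands. The genes were Actg1, Myl6, Myl9, Cnn2, Myo1e and Arpc4. Those of the actin, light chain and calponin genes are shown because Actg1 and Myl6 are among the members called below. In the GRCm38.p6 build the stretches lay at chr11:120348556-120348605 (Actg1, minus strand, box beginning 90 bases before the transcript start), chr10:128493040-128493069 (Myl6, minus strand, 50 bases before), chr2:156775283-156775332 (Myl9, plus strand, 161 bases before) and chr10:79988524-79988573 (Cnn2, plus strand, 56 bases before). The starts of Actg1 and Cnn2 are the outermost of their genes, that of Myl9 lies 56 bases inside its gene, and that of Myl6 lies 877 bases inside, so the Myl6 box is within the longest extent of the gene. Capitals mark the CArG box.
Actg1: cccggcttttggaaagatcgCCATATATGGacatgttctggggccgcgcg
Myl6: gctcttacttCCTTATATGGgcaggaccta
Myl9: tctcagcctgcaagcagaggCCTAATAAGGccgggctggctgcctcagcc
Cnn2: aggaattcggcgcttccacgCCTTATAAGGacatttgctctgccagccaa

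The first comparison asked which cytoskeleton genes changed with age on a log2 scale, which gives early life more room than a linear scale. It was a slope per doubling of age over 40 mice with sex as a term (limma, Benjamini-Hochberg adjustment over 16896 spots, called at 0.05). In all, 6 of 79 members (7.59%) were called and all 6 fell, against 7.03% of all spots called and 5.61% called as falls, so the share of members called was near that of the arrays. They were Actg1, the cytoplasmic gamma actin; Tpm1, a tropomyosin; Cfl1, the filament-severing cofilin of nonmuscle cells; Myh9, the heavy chain of nonmuscle myosin IIA; Kif3a, a motor subunit of kinesin-2, which carries cargo into cilia; and Kif24, a kinesin that acts at centrioles. No member rose past the threshold. The median slope over the 79 members was -0.0024 z and over all spots 0.0041 z. None of the 6 calls was kept after position correction, and 3 other members, all falling, were called then. In whole lung RNA, fewer cells of a type and less RNA per cell cannot be told apart.

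Actg1 ran from 1.31 to 1.79 (median 1.465) in the 10 mice of 17 to 44 days, from 0.97 to 1.57 (median 1.375) at 169 to 194 days, from 1.06 to 1.62 (median 1.39) at 476 to 499 days and from 0.96 to 1.33 (median 1.25) at 704 to 743 days. The youngest and oldest groups overlapped only between 1.31 and 1.33. Its slope was -0.057 ± 0.014 z per doubling (SE, n = 40, adjusted p = 0.0071), and the call held in all 40 fits that left out 1 mouse. After position correction the medians of the 4 age groups were 1.29, 1.37, 1.35 and 1.39, and the slope was 0.013 ± 0.0089 (adjusted p = 0.58).

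Tpm1 had the steepest slope, -0.087 ± 0.023 (adjusted p = 0.016). Its level ran from 0.50 to 1.54 (median 1.07) in the youngest group, from 0.34 to 1.28 (median 0.80) at 169 to 194 days, from 0.52 to 1.41 (median 0.87) at 476 to 499 days and from 0.30 to 0.86 (median 0.585) in the oldest. All groups overlapped. The call was lost without the female of 17 days, the male of 19 days or the female of 21 days, each left out alone. After position correction the slope was -0.021 ± 0.0085 (adjusted p = 0.22) and the SD of the youngest group was 0.11 in place of 0.37. The other spots of Tpm1 had slopes of 0.0071 (table A) and 0.0034 (table B). With the mean of its table B spots the call was lost, at -0.042 (adjusted p = 0.15).

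Kif3a ran from 0.80 to 1.57 (median 1.295) in the youngest group and from 0.71 to 1.16 (median 0.855) in the oldest, with medians of 1.04 and 1.05 in the groups between. Its slope was -0.069 ± 0.017 (adjusted p = 0.0095). After position correction every age group had a median between 1.03 and 1.04, its mice ran from 0.91 to 1.16 over all ages, and the slope was -0.0023 ± 0.0049 (adjusted p = 0.91). The other spots of Kif3a had slopes of 0.021 and -0.028, neither called, and with the mean of its spots on its table the call was lost, at -0.025 (adjusted p = 0.13). Kif24 ran from -0.29 to 0.68 (median 0.06) in the youngest and from -0.58 to 0.10 (median -0.25) in the oldest; its slope of -0.081 ± 0.021 (adjusted p = 0.010) became -0.00031 ± 0.012 after correction.

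Myh9 ran from 0.81 to 1.54 (median 1.105) in the youngest and from 0.23 to 1.09 (median 0.925) in the oldest, with a slope of -0.060 ± 0.017 (adjusted p = 0.025). Cfl1 ran from 0.54 to 1.18 (median 0.92) in the youngest and from 0.47 to 0.81 (median 0.68) in the oldest, with a slope of -0.045 ± 0.013 (adjusted p = 0.028). For both the groups overlapped. After correction the slopes were 0.0074 ± 0.0099 for Myh9 and 0.0051 ± 0.0063 for Cfl1, with adjusted p of 0.84 and 0.82. The call of Myh9 was lost without the female of 17, the female of 19, the male of 19 or the female of 21 days, each left out alone, and that of Cfl1 without any of these mice or the male of 17 days. The call of Kif3a was lost without the female of 17 days and that of Kif24 without the male of 19 days.

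The 6 called members sat in columns where many spots of any gene were called. Kif3a and Cfl1 lay in column 9 of table B, where 273 of 384 spots (71.1%) were called and 268 of those fell. Tpm1 lay in column 8 of table B, with 124 of 384 spots called, and Actg1 in column 7, with 111. Kif24 lay in column 8 of table A, with 84 of 384 spots called, and Myh9 in column 12, with 81. In columns 2 to 6 of table A, 1 spot in all was called. Of the 1188 spots called over the series, 350 were also called after correction; of the 6 members, none were. When spots were corrected by column alone, Actg1, Kif24, Myh9 and Tpm1 were still called as falls, with slopes of -0.036, -0.060, -0.044 and -0.050. With array weights 17 members were called, against 16.5% of all spots. The calls rested on the 5 mice of 17 to 21 days: without them no member and 1 spot of the series were called, and the slopes of Tpm1 and Kif3a were both -0.020. Within the 27 mice numbered before 46 the slopes of Kif24 and Tpm1 were -0.10 and -0.099, both called among 11 of 79 members, against 10.1% of all spots; within the 13 later mice, none of them of 17 to 21 days, they were -0.023 and -0.015 and no member was called.

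**Figure D1:**
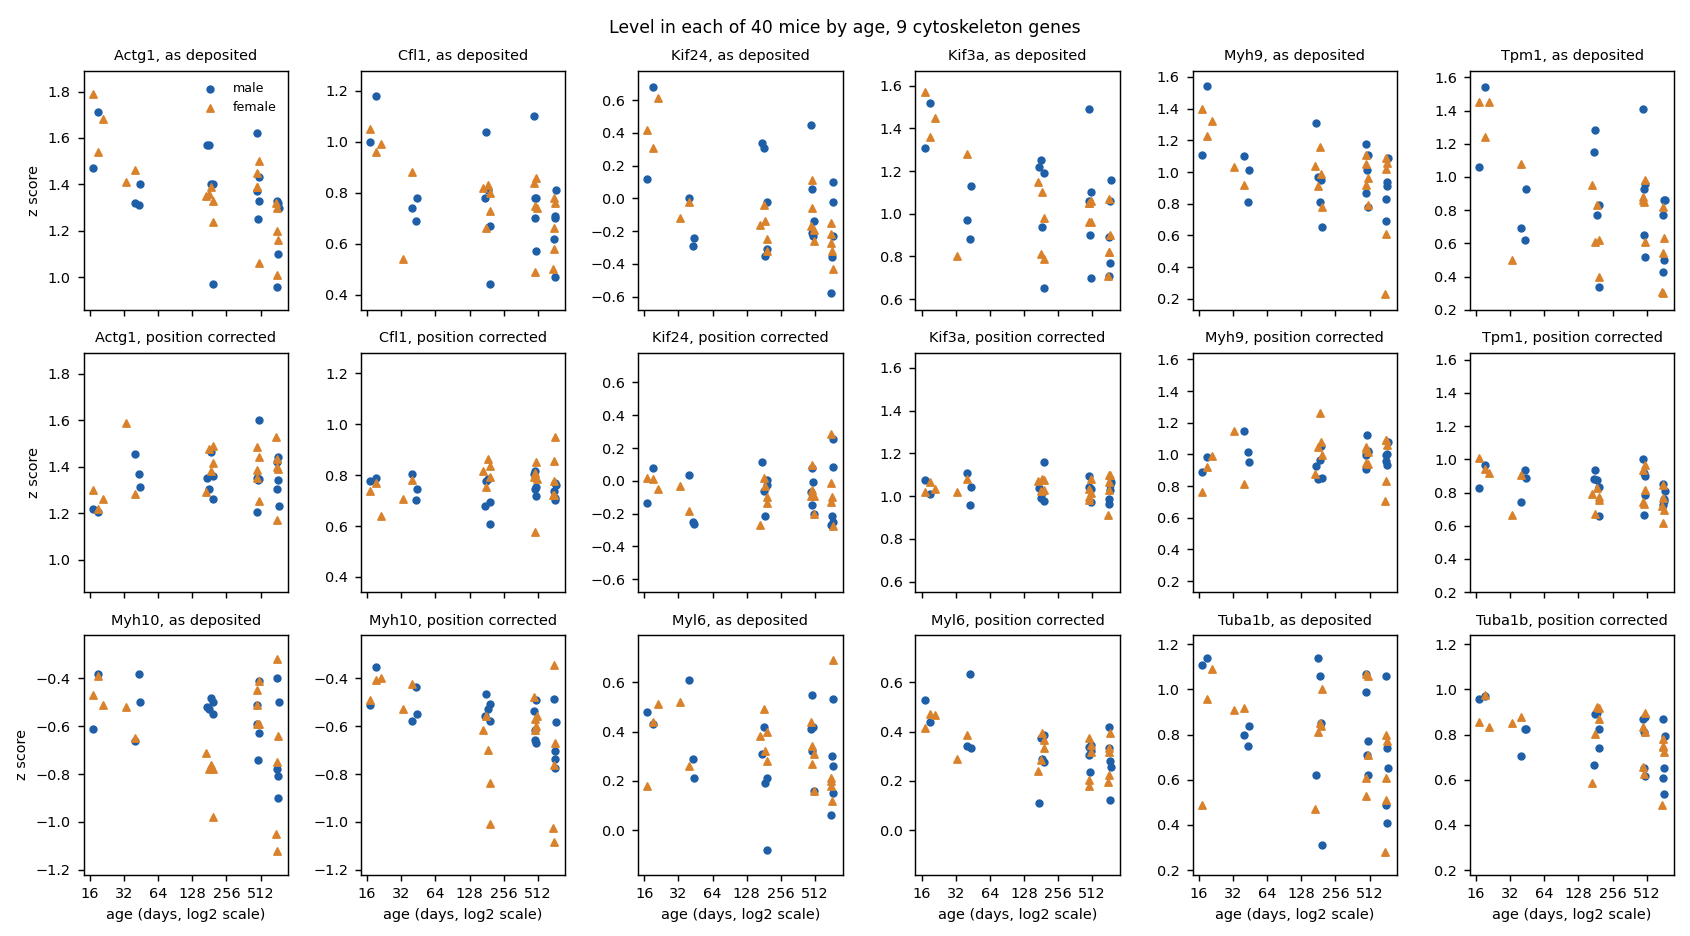
Z score of 9 cytoskeleton genes (vertical axes) against age in days on a log2 axis, with 1 point per mouse, circles for males and triangles for females, as deposited and after position correction. For Actg1, Cfl1, Kif24, Kif3a, Myh9 and Tpm1 the highest deposited value is that of a mouse of 17 to 21 days. Older mice overlap the mice of 17 to 21 days in each of these genes, among them the male of 476 days. The slopes of these genes after correction ran from -0.021 to 0.013. Myh10, Myl6 and Tuba1b, in the lowest panels, have slopes below 0 both as deposited and after correction.

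After position correction 3 of the 79 members (3.80%) were called, all falls, against 3.63% of all spots called and 2.22% called as falls. They were Myl6, the essential light chain of smooth muscle and nonmuscle myosin II; Tuba1b, an alpha-tubulin of most cells; and Myh10, the heavy chain of nonmuscle myosin IIB. None of the 3 was called on the deposited values, where all 3 had slopes below 0.

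Corrected Myl6 ran from 0.29 to 0.63 (median 0.43) in the youngest group, from 0.11 to 0.39 (median 0.31) at 169 to 194 days, from 0.18 to 0.37 (median 0.32) at 476 to 499 days and from 0.12 to 0.42 (median 0.30) in the oldest. The youngest mice were higher, with overlap, and the 3 later groups had nearly the same median. Its slope was -0.031 ± 0.0077 (adjusted p = 0.017), called in 36 of 40 fits that left out 1 mouse; on deposited values it was -0.021 ± 0.014 (adjusted p = 0.47). Corrected Tuba1b had medians of 0.85, 0.85, 0.81 and 0.74 in order of age and ran from 0.71 to 0.97 in the youngest and from 0.49 to 0.87 in the oldest. Its slope was -0.033 ± 0.0096 (adjusted p = 0.040), called in 25 of 40 such fits, and -0.044 ± 0.019 (adjusted p = 0.18) as deposited. Corrected Myh10 ran from -0.58 to -0.35 (median -0.46) in the youngest and from -1.09 to -0.34 (median -0.72) in the oldest, so that the oldest group held both the lowest and the highest of these mice. Its slope was -0.043 ± 0.013 (adjusted p = 0.044), called in 24 of 40 such fits, and -0.032 (adjusted p = 0.25) as deposited. The corrected slope of the other spot of Myh10, on table B, was -0.025 (adjusted p = 0.52). With position correction and the division at number 46 as a term, Myl6 and Tuba1b were called and Myh10 was not, at -0.041 (adjusted p = 0.060). Without the 5 mice of 17 to 21 days none of the 3 was called, with corrected slopes of -0.022 for Myl6, -0.028 for Tuba1b and -0.037 for Myh10.

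**Figure D2:**
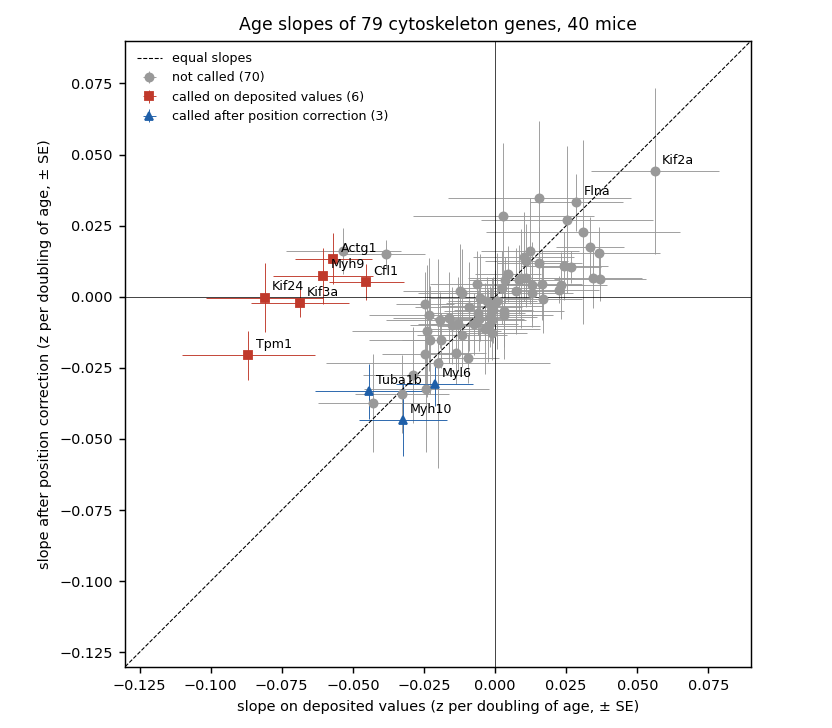
Slope per doubling of age on deposited values (horizontal axis, z) against the slope after position correction (vertical axis, z) for 79 cytoskeleton genes in 40 mice, with SE bars, squares for the 6 genes called as deposited, triangles for the 3 called after correction and circles for the rest. The 6 squares lie between -0.087 and -0.045 on the horizontal axis and between -0.021 and 0.013 on the vertical, while most other genes lie near the dashed line of equal slopes.

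Of the other actins, neither Actb nor Acta2 was called. Acta2, the smooth muscle alpha actin, ran from 0.13 to 0.59 (median 0.465) in the youngest and from -0.12 to 0.50 (median 0.32) in the oldest, with a slope of -0.013 ± 0.014 (adjusted p = 0.73). Actb, the cytoplasmic beta actin, was on 7 spots. The brightest ran from 2.31 to 2.77 (median 2.62) in the youngest and from 2.30 to 3.21 (median 2.58) in the oldest. The slopes of the 7 spots ran from -0.035 to 0.011 with 6 of 7 below 0, and none was called, the smallest adjusted p being 0.35 as deposited and 0.23 after correction. Over the 40 mice, deviations of the other Actb spots from their group means correlated with those of the brightest spot at r = 0.11 to 0.63. Actins are very alike in their coding sequence, so a cDNA spot of one can bind RNA of another, and how far that happened was not tested.

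Of 10 actin-related and Arp2/3 genes, none was called as deposited or after correction, and their deposited slopes ran from -0.012 (Arpc2) to 0.025 (Actr1a) with a median of -0.00039. The 4 actinins, which bundle actin filaments, ran from -0.025 (Actn4) to 0.027 (Actn2), none called. Of the filamins, which cross-link actin into networks, Flna ran from 0.66 to 1.09 (median 0.835) in the youngest and from 0.58 to 1.20 (median 1.045) in the oldest. Its slope was 0.029 ± 0.016 (adjusted p = 0.39) as deposited and 0.033 ± 0.010 (adjusted p = 0.053) after correction, and that of its other spot was -0.016. Flnc, the filamin of muscle, had a slope of -0.023 (adjusted p = 0.68). Of the remaining tropomyosins, Tpm2, Tpm3 and Tpm4 had slopes of -0.012, -0.0074 and -0.0062, none called, and each of the 3 spots of Tpm3 was below 0. The calponins Cnn1, Cnn2 and Cnn3 had slopes of -0.0010, 0.010 and 0.013, and Tagln2, a transgelin, -0.043 (adjusted p = 0.21). The light chains Myl9 and Myl12b, which regulate contraction, had slopes of -0.0096 and -0.00093.

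None of 8 unconventional myosins, which carry membranes and vesicles along actin, was called; their deposited slopes ran from -0.025 (Myo9a) to 0.022 (Myo5a) and their corrected slopes from -0.013 (Myo1c) to 0.028 (Myo10). Apart from Tuba1b, the tubulins were not called in either form. Tubb2b had a slope of -0.024, Tubb3 of -0.015, Tubb6 of 0.013, and the 3 spots of Tubb5 had slopes of 0.00054, -0.0013 and 0.0092. The gamma-tubulin complex nucleates microtubules; its members Tubgcp5, Tubgcp2 and Tubg1 had slopes of 0.037, 0.033 and -0.016, with adjusted p of 0.20, 0.084 and 0.77.

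Of 23 kinesins, each read from its brightest spot, 2 fell as deposited and none after correction. Their median slope was -0.0035 as deposited and 0.0058 after correction. The brightest spot of Kif16b, on table B, had a slope of 0.034 (adjusted p = 0.28). Its other spot, in column 12 of table A, was called as a fall at -0.056 (adjusted p = 0.025). After correction that spot was at -0.034 (adjusted p = 0.22). Kif3b, the partner of Kif3a in kinesin-2, had a slope of -0.038 (adjusted p = 0.091) as deposited and 0.015 (adjusted p = 0.094) after correction. Kif2a, which takes microtubule ends apart, had the highest slope of any member, 0.056 ± 0.022 (adjusted p = 0.14). Kif5b, a cargo motor of most cells, had a slope of 0.0045 with an SE of 0.011. The 8 kinesins of mitosis Kif4, Kif11, Kif14, Kif18a, Kif20a, Kif22, Kif23 and Kif2c, named from their known roles, had deposited slopes between -0.053 (Kif11) and 0.031 (Kif2c), none called. Under alternatives Kif11, in column 8 of table B, was called as a fall. These were array weights, the division at number 46 as a term, and the mice numbered before 46 alone. RefSeq promoters were held for 7 of the 8 kinesins of mitosis. The letters TTTGAA, searched on both strands as the core of an element of cell-cycle promoters, were found in 6 of these 7 genes, in 16.7% of member promoters and in 17.9% of all promoters. The stretches shown, with these letters or their complement in capitals, lie at chr19:37376343-37376388 (Kif11, plus strand, 19 bases before the transcript start) and chr7:127042610-127042655 (Kif22, minus strand, 215 bases before) of GRCm38.p6. Both motifs shown lie before the outermost start of their gene. Another Kif22 match, not shown, lies 17 bases before the transcript start and 30 bases inside the outermost start of the gene.
Kif11: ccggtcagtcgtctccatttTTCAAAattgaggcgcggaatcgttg
Kif22: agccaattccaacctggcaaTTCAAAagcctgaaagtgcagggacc

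No keratin was called, nor was vimentin. Krt8, a keratin of all simple epithelia, ran from 1.21 to 1.57 (median 1.355) in the youngest and from 1.01 to 1.97 (median 1.315) in the oldest, with a slope of -0.0016 ± 0.017. Krt18, its partner in the filament, ran from 0.40 to 0.87 (median 0.58) in the youngest and from 0.11 to 1.06 (median 0.75) in the oldest, with a slope of 0.0092 ± 0.019. Krt7 and Krt19, found in the same epithelia, had slopes of -0.0024 and 0.0033, and Krt10, a keratin of skin, -0.023. Vim, the filament of fibroblasts, endothelium and leukocytes, ran from 0.80 to 1.58 (median 1.345) in the youngest and from 0.90 to 1.50 (median 1.165) in the oldest. Its slope was -0.033 ± 0.017 (adjusted p = 0.30) as deposited and -0.034 ± 0.014 (adjusted p = 0.19) after correction. None of these 6 genes was called in any of the 8 comparisons in either form; Vim was called as a fall under 3 alternatives: at -0.046 (adjusted p = 0.0060) with position correction and the division at number 46 as a term, at -0.044 (adjusted p = 0.044) with that term alone, and with array weights.

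**Figure D3:**
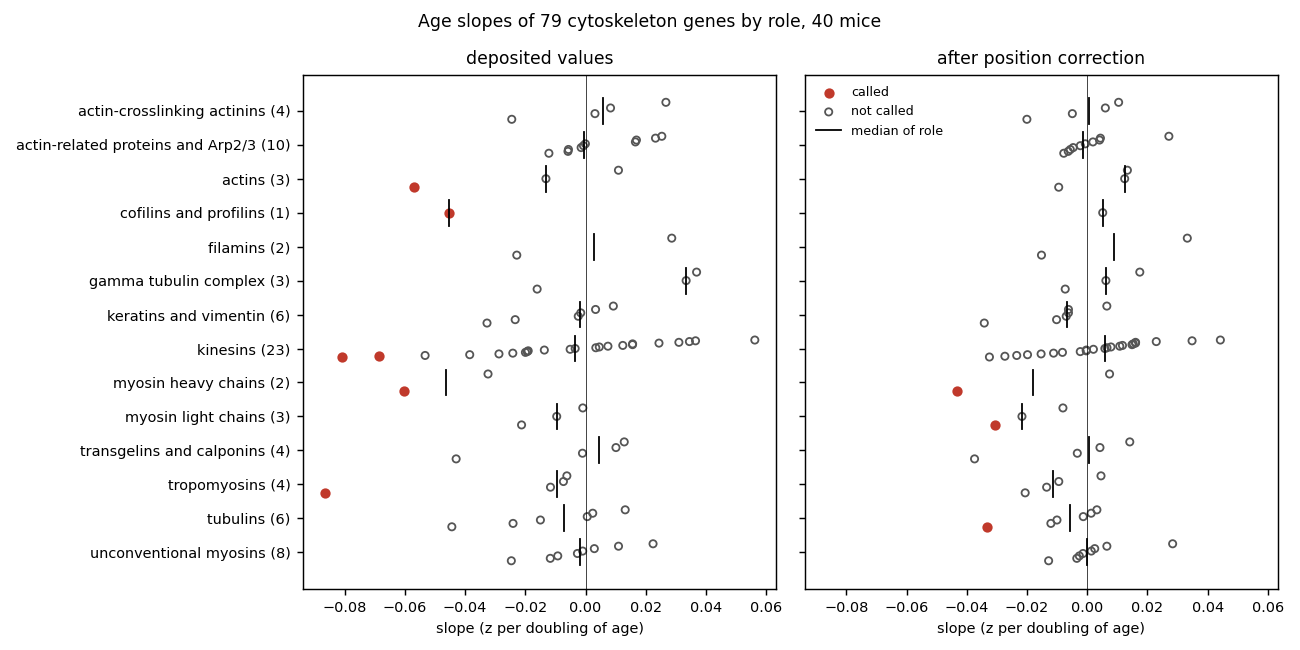
Slope per doubling of age (horizontal axes, z) of 79 cytoskeleton genes in 40 mice, in rows by role with the number of genes in brackets, as deposited on the left and after position correction on the right. Filled points are called genes, open points are not called and vertical lines are role medians; the 6 filled points on the left fall in the actin, cofilin, kinesin, myosin heavy chain and tropomyosin rows and the 3 on the right in the myosin heavy chain, myosin light chain and tubulin rows.

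The youngest group spanned weaning and growth, and its 5 mice of 17 to 21 days were set against its 5 mice of 33 to 44 days, with sex as a term. In this comparison 6 of 79 members (7.59%) were called, 2 higher and 4 lower in the older mice, against 7.48% of all spots, 1.96% higher and 5.52% lower. Those lower were Tpm1, Kif24, Kif3a and Cfl1, also called over all ages, a comparison that shares these mice. Those higher were Tubgcp5, a subunit of the gamma-tubulin complex, and Kif16b, a kinesin of endosomes.

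Kif24 was at 0.12, 0.31, 0.42, 0.61 and 0.68 in the mice of 17 to 21 days and at -0.29, -0.24, -0.12, -0.02 and 0.00 in those of 33 to 44 days, without overlap, a difference of -0.55 z (adjusted p = 0.017). Kif3a was at 1.31, 1.36, 1.45, 1.52 and 1.57 against 0.80, 0.88, 0.97, 1.13 and 1.28, also without overlap, a difference of -0.42 z (adjusted p = 0.028). Tpm1 was at 1.06, 1.24, 1.45, 1.45 and 1.54 against 0.50, 0.62, 0.69, 0.93 and 1.08, with 1 mouse of each part overlapping and a difference of -0.57 z (adjusted p = 0.021). These genes were thus lower in the older mice of this group in nearly every mouse. Cfl1 differed by -0.32 z (adjusted p = 0.034), with no overlap. Tubgcp5 was at 1.35, 1.36, 1.41, 1.49 and 1.51 against 1.65, 1.79, 1.84, 1.97 and 2.07, a difference of 0.44 z (adjusted p = 0.017). Kif16b was at 0.33, 0.36, 0.39, 0.44 and 0.64 against 0.68, 0.75, 0.92, 1.00 and 1.01, a difference of 0.44 z (adjusted p = 0.019); its spot on table A differed by -0.063 z (adjusted p = 0.83). Both genes were higher without overlap at 33 to 44 days.

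After position correction no member and 0% of all spots were called by limma in this comparison, with 8 members at an unadjusted p under 0.05. The corrected differences were -0.12 z for Kif24, 0.0026 z for Kif3a, -0.11 z for Tpm1, -0.0020 z for Cfl1, 0.14 z for Tubgcp5 and 0.19 z for Kif16b, with adjusted p from 0.11 to 0.99. The corrected values of Flna did not overlap, at 0.68, 0.68, 0.69, 0.71 and 0.75 against 0.91, 0.91, 0.92, 0.96 and 1.04; its difference of 0.25 z had an adjusted p of 0.054, the smallest value reached, which 62 spots shared. Its other spot differed by 0.23 z after correction (adjusted p = 0.33). Separation after correction was not particular to Flna. Corrected Kif2a ran from -0.29 to -0.17 against -0.16 to 0.59. Its 2 highest deposited values among these mice, 0.45 and 0.46, were those of the 2 mice numbered after 46. Corrected Kif11 ran from 0.17 to 0.38 against 0.39 to 0.55. As deposited Kif11 went the other way, from 0.55 to 0.92 against 0.23 to 0.61. As deposited, leaving out the male of 19 days or the female of 33 days gave no member and no spot of the series called. Leaving out the female of 17 days or the female of 21 days gave 2 members, with 409 and 452 of 16896 spots, and leaving out the female of 40 days gave 10, with 1944 spots, so the count of members moved with that of all spots. With the mean of a gene's spots on its table, Kif3a and Tpm1 were not called, at -0.18 z (adjusted p = 0.25) and -0.27 z (adjusted p = 0.18). All 5 mice of 17 to 21 days had title numbers under 46, where the deviations of table B changed, and 2 of the older 5 had later ones; with that division as a term no member was called, and Kif24 differed by -0.59 z (adjusted p = 0.078).

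**Figure D4:**
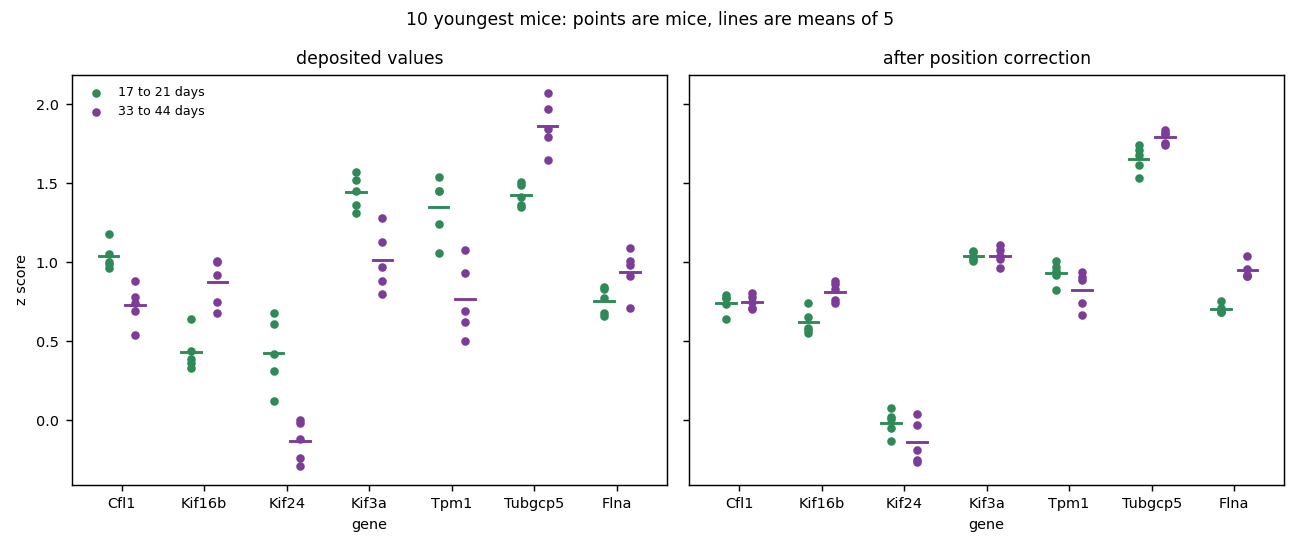
Z score (vertical axis) of the 6 members called among the 10 youngest mice and of Flna, with mice of 17 to 21 days on the left of each pair and mice of 33 to 44 days on the right, as deposited and after position correction. Points are mice and lines are means of 5; the deposited gaps of -0.57 to 0.44 z shrink after correction, and Flna has separate groups there.

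Later in life no member was called. Values here are as deposited where no form is named. The linear slope per 100 days over 40 mice called 0 of 79 members and 0.0178% of all spots (3 spots), with 13 members at an unadjusted p under 0.05; Actg1 came nearest at -0.037 ± 0.0096 z (adjusted p = 0.054), and at 0.0050 after correction. Over the 30 mice of 169 days or older, 0 of 79 members and 0% of spots were called, with 2 members at an unadjusted p under 0.05. There Actg1 had a slope of -0.029 ± 0.013 z per 100 days and Tubgcp2 one of 0.023 ± 0.010. From 17 to 44 days to 169 to 194 days 0% of spots and no member were called, with 4 members at an unadjusted p under 0.05; the largest step was that of Tpm1, -0.28 ± 0.13 z. From 169 to 194 days to 704 to 743 days 0.00592% of spots (1 spot) and no member were called, with 3 members at an unadjusted p under 0.05, among them Actg1 at -0.16 ± 0.073 z and Kif5b at 0.13 ± 0.059 z.

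Males and females differed in none of the 79 members past the threshold (0% of spots called; 1 member at an unadjusted p under 0.05). That member was Kif26a, a kinesin without motor activity, at -0.14 ± 0.064 z in males less females (adjusted p = 1.00). The difference of age slopes between the sexes was called for no member and 0% of spots, with 1 member at an unadjusted p under 0.05; Kif14, a kinesin of cytokinesis, had the largest difference for its error, -0.057 ± 0.023 z per 100 days, male less female.

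The members with the largest spread between mice of one sex and age were led by Kif4 and Kif2c, both kinesins of mitosis. The SD of mice around their group means was 0.49 z for Kif4, 0.44 for Kif2c, 0.41 for Kif1c, 0.40 for Myo10, 0.39 for Actr1a, 0.34 for Tubb2b, 0.30 for Kif2a, 0.29 for Tpm1, 0.27 for Flnc and 0.27 for Kif28. The value of Kif4 rested on 1 female of 499 days at -3.82, where the other mice ran from -2.18 to -0.83; without it the SD was 0.32. That of Myo10 rested on a male of 194 days at -2.99, and was 0.24 without it. The same male was at -3.51 in Actr1a, with an SD of 0.27 without it. Without the male of 17 days, at -2.88, the SD of Kif2c was 0.34. Without the male of 43 days, at -1.65, that of Kif1c was 0.35. The mean z of 5 of these 10 was below -1. The least spread was that of Kif1b at 0.11, Kif5b at 0.11 and Myo9a at 0.12. Members had a median SD of 0.20 and all spots 0.19, which became 0.14 and 0.15 after correction. After correction the SD of Tpm1 was 0.099 and that of Kif28 0.11, while those of Kif2a and Kif4 were 0.38 and 0.46. Several spots were held for 24 members, and deviations of their 37 other spots correlated with those of the brightest at a median r of 0.16, or 0.081 after correction.

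Deviations of mice from their group means were then compared between members. Of 3081 pairs of members over 40 mice, the median r was 0.041 as deposited and 0.018 after correction. As deposited the highest pair was Kif3a and Tpm1, from neighbouring columns of table B, at r = 0.95 (rho = 0.94); after correction it was at r = 0.12, rank 1137. After correction the highest pair was Krt8 and Krt18, partners in one filament measured on different tables, at r = 0.86 (rho = 0.89), and at r = 0.82 (rho = 0.84) as deposited. Without the 2 mice farthest from the median on Krt18, the corrected r was 0.83; within the 27 mice of title numbers under 46 it was 0.81 and within the other 13 it was 0.89. These pairs were chosen as the highest, so no p is given. Krt18 ranked 2 among 8448 spots of table B by corrected correlation with Krt8, and 18 as deposited; 5% of those spots had an r of 0.51 or more, or 0.61 as deposited, so high correlations were common. The other spots of Krt18, on table A, correlated with the brightest at -0.29 and -0.19 as deposited. Those of Krt8 correlated with its brightest at -0.19 and 0.33 as deposited, and at -0.063 and 0.050 after correction. The 2 arrays of a mouse share its RNA. Krt7 and Krt19 were at r = 0.76 after correction and Arpc2 and Krt19 at 0.82. The tropomyosin Tpm2 was at 0.84 with Krt8 and 0.80 with Krt18 after correction, ranks 2 and 5 among the pairs. High values were thus not limited to filament partners.

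**Figure D5:**
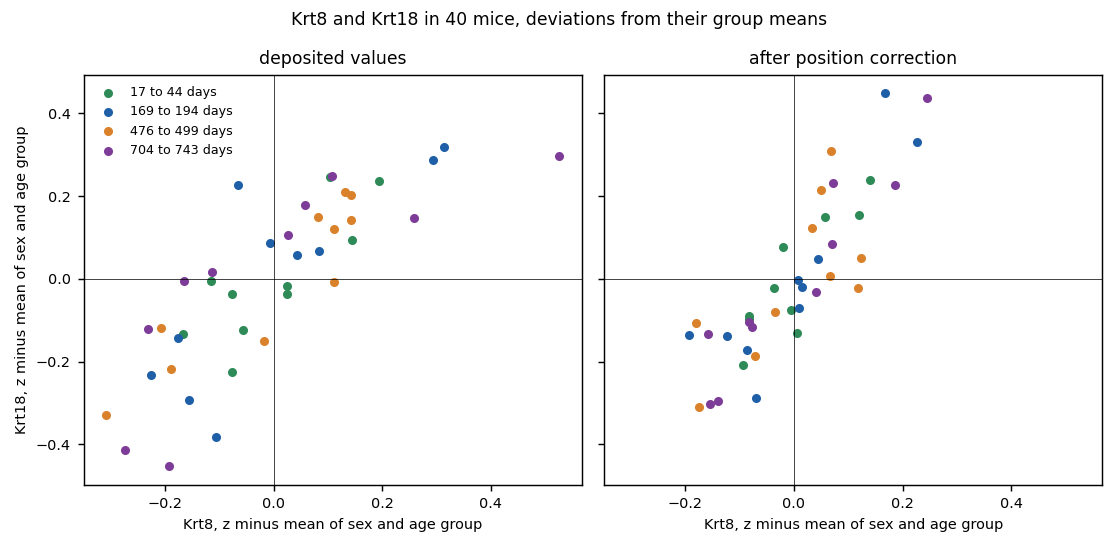
Deviation of Krt18 (vertical axis, z) against deviation of Krt8 (horizontal axis, z) from the mean of each mouse's sex and age group, as deposited on the left and after position correction on the right, 1 point per mouse, coloured by age group. The points lie along a rising line at r = 0.82 as deposited and 0.86 after correction, and mice of all 4 age groups lie along it.

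Genes that work with these families were counted from lists chosen apart from the members. Of 61 actin regulators 42 were measured, and over all ages 2 rose and 7 fell as deposited, 5 fell and none rose after correction. Of all spots 1.42% rose and 5.61% fell as deposited, and 1.41% rose and 2.22% fell after correction. The median slope of these regulators was -0.0026 as deposited and -0.010 after correction, and that of all spots 0.0041 and 0.00062. Dstn, the cofilin-like destrin, fell with a slope of -0.11 ± 0.022 (adjusted p = 0.0055) and was at -0.012 after correction (adjusted p = 0.38). Diaph1, a formin that elongates filaments, fell in both forms, with slopes of -0.038 ± 0.010 (adjusted p = 0.015) and -0.040 ± 0.0069 (adjusted p = 0.0023). So did Sptan1 and Add3, of the membrane skeleton, at -0.10 and -0.093 as deposited and -0.035 and -0.027 after correction. Of 44 microtubule partners 33 were measured; 2 rose and 5 fell as deposited, 1 rose and 1 fell after correction, with medians of 0.0034 and 0.00014. Dynll1, a dynein light chain, rose in both forms at 0.039 and 0.085 (adjusted p of 0.039 and 0.023), and Clasp1, which stabilises microtubule ends, fell in both at -0.056 and -0.058. Of 17 other intermediate filament genes and linkers 6 were measured and none was called over all ages. Within the youngest, 1 actin regulator rose and 5 fell, 2 microtubule partners rose and 3 fell, and Plec, a linker of intermediate filaments, rose by 0.31 z (adjusted p = 0.038), against 1.96% of all spots higher and 5.52% lower; none was called after correction.

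Markers of other cells were fitted in the same way, and their counts stand against the same shares of all spots. Of 7 measured smooth muscle and pericyte markers 1 rose in both forms, Kcnmb1, and none fell. Their deposited summed z ran from -0.07 to 0.80 in the youngest and from -0.15 to 1.61 in the oldest mice. None of 8 ciliated cell markers and none of 3 endothelial markers was called. Of 8 fibroblast markers 4 fell as deposited and 2 after correction. Their deposited summed z ran from 3.87 to 5.50 in the youngest and from 2.25 to 5.13 in the oldest. After correction it ran from 3.92 to 5.06 in the youngest and from 2.74 to 5.68 in the oldest. Of 4 erythroid markers 3 fell in both forms, with a summed z of 2.62 to 6.58 in the youngest and 1.79 to 4.53 in the oldest. Of 4 alveolar type II markers 2 fell as deposited and 1 after correction, and of 2 club cell markers 2 rose as deposited and 1 after correction. Of 25 proliferation genes 2 rose and 2 fell as deposited, and 1 rose after correction. Of 10 lymphoid markers 1 was measured, Ighm, the heavy chain of IgM. As deposited it ran from -0.21 to 0.13 in the youngest and from 0.19 to 2.32 in the oldest, without overlap. After correction the groups overlapped, at -0.32 to 0.36 and 0.17 to 2.34. It rose in both forms, with slopes of 0.24 ± 0.051 (adjusted p = 0.0055) and 0.23 ± 0.049 (adjusted p = 0.0052). Between the groups of 169 to 194 and 704 to 743 days, its deposited step was 1.34 z (adjusted p = 0.029), the 1 spot called there. After correction this step was 1.26 z (adjusted p = 0.066) and was not called. Among the youngest, 4 of 8 fibroblast, 3 of 4 erythroid and 2 of 25 proliferation markers fell, 1 smooth muscle and pericyte marker rose and 1 fell, and none was called after correction. The part of these cells in the slopes of the cytoskeleton genes was not tested.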

How the data were processed

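Lung RNA of 40 mice was measured on 80 radioactive cDNA arrays, 1 of table A and 1 of table B per mouse. The deposited values are z scores, a score the authors computed within each array; on what scale, and how background and poor spots were handled, is not stated in the sources used. No background measure was used, and how far the number of arrays limits the precision was not tested. The members, lists and tests were chosen with earlier results of these data known. Ages, sexes and groups came from the labels. The tables were fitted separately with limma 3.58.1 in R 4.3.3 (lmFit, eBayes, two-sided), with sex as a term or as part of 8 group means, and p-values were adjusted by Benjamini-Hochberg over 16896 spots and called at 0.05. The fit was tested on simulated data: of 200 spots given a slope of 0.1 or 0.2 z per doubling of age, 85% and 100% were called. These values were drawn independently, without the position or title number pattern of the arrays. No smaller slope per doubling was simulated, and deposited member slopes ran from -0.087 to 0.056. Recovery was 25% for 0.05 z per 100 days in 30 adult mice. It was 25% for a step of 0.25 z between age groups and 37% for 0.5 z within the youngest. Members described by name were well-known members of each family and those with the smallest p in each comparison (up to 10 per direction), the 10 of largest spread, genes of 4 or more spots and up to 3 genes per other list; the 8 kinesins of mitosis and other members described for their role were named after values were seen. Alternatives were quantile normalization, position correction by block and column or by column, leaving out the dimmest 33.3% of spots, trend and robust settings, array weights, the division at title number 46, means over spots, a threshold of 0.1 and each mouse left out. Promoter sequences are from RefSeq, GRCm38.p6.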

Additional observations from a re-analysis of the deposited data

Results flagged for a closer look

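Among the 60 age groups of 10 mice looked at (15 members in 4 groups), 9 had a mouse whose gap to the nearest other mouse took more of the group's range than Dixon's critical value for 10 allows; chance flags about 1 in 20 groups. The male of 476 days was high in Kif3a at 1.49 and Tpm1 at 1.41, from neighbouring columns of table B, and in Kif24 at 0.45, on table A. The female of 17 days was low in Actb at 2.31 and in Acta2 at 0.13. A male of 743 days was low in Acta2 at -0.12, a male of 194 days was low in Myl6 at -0.08, the male of 43 days was low in Vim at 0.80, and the female of 704 days was high in Krt8 at 1.97.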

How the results depend on the processing

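No paired analysis was possible because the replicate numbers were given in accession order and pair no mice. Over all ages, per doubling of age, 6 members were called; the count was 3 after position correction, 17 with array weights, 0 among later title numbers alone, 3 with position correction and the division at title number 46 (Myl6, Tuba1b and Vim), 11 before title number 46 alone, 0 from 46 on alone, 0 without the mice of 17 to 21 days and 0 with position correction and without those mice, and it ran from 2 to 10 with 1 mouse left out. It was 2 without the female of 17 or the male of 19 days (479 and 487 spots of the series), 3 without the female of 21 days (618) and 10 without the female of 33 days (1642). With means over a gene's spots, Tpm1 and Kif3a lost their calls in both comparisons. Alternatives with title number 46 counted as later, or without mice of 17 to 21 days, were added after seeing the data. Among the youngest, 6 members were called; the count was 0 after position correction, 2 after column correction, 0 with title number as a term (either division), 0 within earlier title numbers, and 0 to 10 with 1 mouse left out. For the linear slope over 40 mice, with 0 called, it was 1 without the dimmest 33.3% of spots, 8 with array weights, 3 at a threshold of 0.1 and 0 to 4 with 1 mouse left out. The other 5 comparisons called no member under any alternative run, each mouse left out included.

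Slopes turned sign for Actg1 (0.013 after position correction, 0.0090 with the division added), Cfl1 (0.0051, 0.0065, 0.020 after column correction, and 0.0043 corrected without the mice of 17 to 21 days), Myh9 (0.0074 and 0.0066), Kif24 (0.015 corrected without those mice) and Kif3b (0.027 after column correction, called as a rise). Of the members called among the youngest, Cfl1 turned to 0.068 after column correction and Kif3a to 0.0026 after position correction. Kif11, which was not called there, was lower in the older of these mice as deposited and higher after position correction. After column correction alone, Actg1, Kif24, Myh9 and Tpm1 were still called as falls, and Tuba1b with them. Why the corrections differ was not tested.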
